A study of Mus musculus with 95 samples.

Results

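The miR-26 family was followed through 2 hairpin precursors, MI0000083 (mir-26a-1) and MI0000084 (mir-26b), which are 2 of the 1881 features in the deposited small RNA table. The rule that chose them used identifier and name and no measured value, but earlier results of these data were known when they were chosen. Both were present in every library. The table itself lists identifiers without names, and the names used here come from the rule that chose the members. A further feature, MI0000750, is described by its identifier because its estimates are tied to those of MI0000083.

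MicroRNAs are cut from hairpin precursors and guide repressor complexes to messenger RNAs that pair with the seed, a short stretch near the 5′ end. The miR-26 genes lie inside genes of the Ctdsp family, whose products are small phosphatases of the RNA polymerase II C-terminal domain. These phosphatases are recruited with REST, a repressor of neuronal genes, and in zebrafish miR-26b represses its own host ctdsp2 during neuronal differentiation. Normal huntingtin holds REST in the cytoplasm, and REST activity is known to be altered in Huntington's disease. In liver, miR-26a is known as an abundant microRNA that slows the cell cycle.

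Small RNA was sequenced from striatum, cortex and liver of 32 mice, giving 95 libraries in 12 groups. Heterozygous KI mice carried a Huntington's disease allele at the mouse huntingtin locus, either in the Z_Q175 (neo -) line (CHDI-81003019), here called neo-deleted, or in the z_Q175 line that still carries the neo cassette (CHDI-81003003), here called neo-intact. Each line had its own wild-type (WT) littermates, and all mice had the C57BL6/J background and were 6 months old. Every group held 8 libraries, from males and females, apart from 7 for neo-deleted KI striatum, and cortex and striatum were taken from the left hemisphere and liver from the left lobe. A number after the letter L in each library's label, whose meaning the labels do not give, split the libraries unevenly. In liver the numbers were L1, L2 and L3, in striatum L7 and L8, and in cortex L1, L8 and, for 1 library, L2. The neo-intact striatum had L7 for 3 KI and 7 WT libraries and L8 for 5 KI libraries and 1 WT library.

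The 26 L8 libraries, all from striatum or cortex, held 297046 to 496035 counts, and the other 69 libraries held 74540 to 164218. Within a library the members accounted for 3.52 ± 0.346% of counts in liver (SD, n = 32), 7.63 ± 1.24% in striatum (n = 31) and 6.57 ± 1.22% in cortex (n = 32). Tissue identity was not checked against marker microRNAs, since the identifiers could not be paired with names. In whole tissue, fewer cells of a type and less RNA per cell cannot be told apart.

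The mature sequences are shown because they decide which reads can be told apart and which targets the members share. They are RefSeq's mouse sequences on GRCm38.p6, 5′ to 3′, with the seed (bases 2 to 8) in capitals.
mmu-miR-26a-5p, from Mir26a-1 and from Mir26a-2: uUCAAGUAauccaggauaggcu
mmu-miR-26b-5p, from Mir26b: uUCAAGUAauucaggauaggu
mmu-miR-26a-1-3p: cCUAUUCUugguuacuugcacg
mmu-miR-26a-2-3p: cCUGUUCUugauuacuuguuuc
mmu-miR-26b-3p: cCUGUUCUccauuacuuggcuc

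The 5p arms of miR-26a and miR-26b share their seed, and these 2 were the only entries with it among the 1679 distinct mature mouse entries in the RefSeq table. Counted from the 5′ end, miR-26b-5p differs from miR-26a-5p by C11U and C21U and is 21 rather than 22 nt long. Mir26a-1 and Mir26a-2 give an identical 5p arm, so a full-length 5p read cannot be assigned to one of them. Their 3p arms differ at 6 of 22 positions. The hairpin of Mir26a-1 lies at chr9:119031796-119031885 on the plus strand, in an intron of Ctdspl. Mir26b lies at chr1:74394310-74394394 on the plus strand in an intron of Ctdsp1. Mir26a-2 lies at chr10:126995530-126995613 on the plus strand in Ctdsp2, where 1 base of the hairpin overlaps an annotated exon.

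The sequences above are of the mouse genes, and the identifiers could not be paired with a sequence or a species, so which hairpin MI0000750 stands for is not stated here. MI0000084 held whole numbers in 95 of 95 libraries (within 0.005), but MI0000083 did so in 1 and MI0000750 in 0. The sum of MI0000083 and MI0000750 was whole in 95 of 95 libraries, and the next best of the 152 features searched made a whole sum with MI0000083 in 3. Whole sums of fractional parts are what a division of shared reads between MI0000083 and MI0000750 would give, and the level of either alone then rests on how the authors' counting divided them. The lengths implied by the deposited counts and FPKM values were 77 nt for MI0000083, 77 nt for MI0000084 and 84 nt for MI0000750, and the RefSeq mouse hairpins Mir26a-1, Mir26b and Mir26a-2 are 90, 85 and 84 nt long. The implied lengths of both members thus differ from those of the mouse hairpins with the same gene names. Whether the counted hairpins were mouse sequences is not known. The annotation used for counting is not given in the sources used here.

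MI0000083 was among the most abundant features of each tissue, and MI0000084 was much less abundant in brain. By mean CPM (counts scaled to 1000000 per library), MI0000083 ranked 8 in liver, 3 in striatum and 3 in cortex. MI0000084 ranked 27 in liver, 64 in striatum and 69 in cortex. Per length, MI0000083 averaged 399580 ± 42359 FPKM in liver, 962705 ± 154088 in striatum and 832484 ± 153744 in cortex (SD, n = 32, 31 and 32). MI0000084 averaged 58055 ± 6246 FPKM in liver, 28475 ± 8252 in striatum and 20360.3 ± 5945 in cortex over the same libraries. The members thus differed in their order of tissues, with MI0000083 lowest and MI0000084 highest in liver.

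Inside L numbers the order was finer. For MI0000083 the mean level fell in the order L8 striatum (86174 ± 4447 CPM, n = 14), L8 cortex (77907 ± 5475, n = 12), L7 striatum (64208 ± 4044, n = 17) and L1 cortex (55873 ± 4435, n = 19), and neighbours overlapped in range. The 1 L2 cortex library had 54770.3 CPM. Liver came last, at 33117 ± 1848 CPM in L3 (n = 7), 31642 ± 4075 in L1 (n = 7) and 29514 ± 2843 in L2 (n = 18), with overlapping ranges and a gap to every brain library. That gap rests on how reads shared with MI0000750 were divided. For the sum of MI0000083 and MI0000750, liver reached 52023 CPM and cortex began at 50119.5, so they overlapped. Striatum began at 61167 CPM for the sum.
For MI0000084 the liver stood first, at 5004 ± 407 CPM in L3, 4328 ± 424 in L2 and 4302 ± 304 in L1, and L2 and L1 differed by less than their SD. L8 striatum followed at 2856 ± 127 CPM, then L8 cortex at 2112 ± 209, L7 striatum at 1646 ± 203 and L1 cortex at 1236 ± 133. No library of L8 striatum overlapped liver or L8 cortex, but L8 cortex and L7 striatum overlapped, and so did L7 striatum and the 1 L2 cortex library (1339 CPM). In each brain region every L8 library was above every other library for both members on this scale, and the L8 libraries also had the larger totals. How many other features separate by L number in this way was not counted. With CPM scaled by TMM within each tissue, MI0000083 overlapped in both regions. In cortex L8 began at 59323 and L1 reached 65075, and in striatum L8 began at 71268 and L7 reached 81958. MI0000084 then overlapped in striatum, where L8 began at 2258 and L7 reached 2343. The part of depth in this was not tested.

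**Figure D1:**
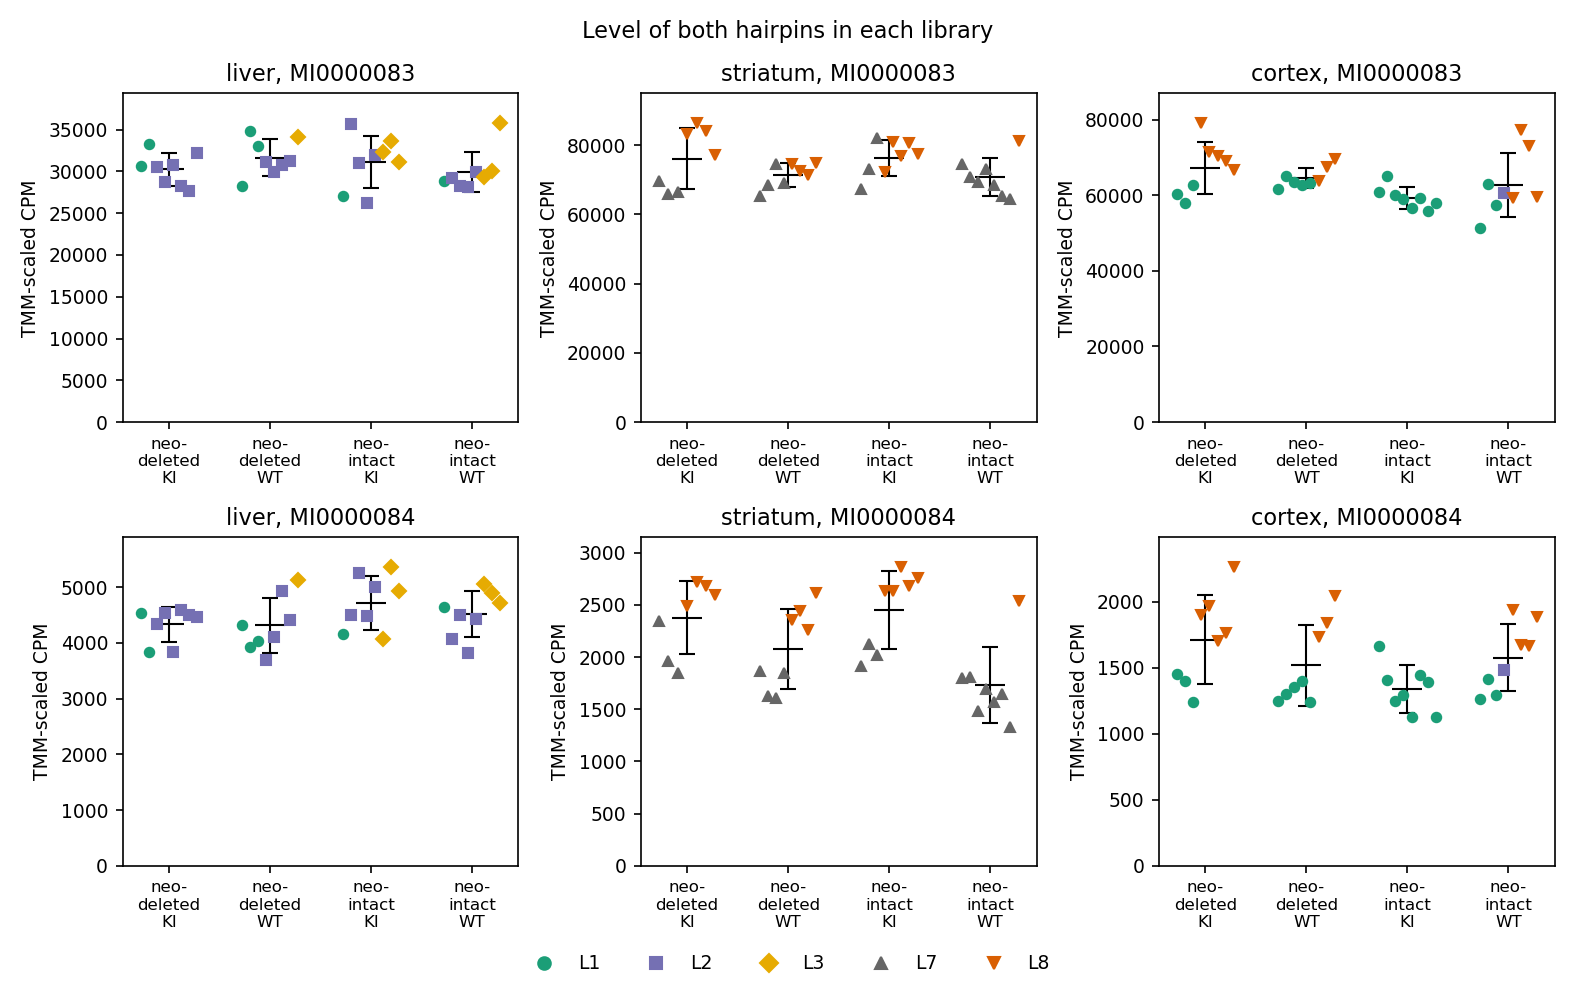
Level of MI0000083 (top) and MI0000084 (bottom) in each library, in CPM scaled by TMM within each tissue, with liver, striatum and cortex from left to right and one point per library, shaped and coloured by L number. Bars are group means ± SD. In striatum and cortex the L8 libraries form the upper part of most groups. MI0000084 in neo-intact striatum averaged 2453 in KI mice and 1734 in WT mice, but L8 held 5 of these KI libraries and 1 WT library. With L number and sex in the model the difference was 0.27 log2 units.

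The comparison of KI with WT mice asks how the Huntington's disease allele changes microRNAs in each tissue and line. Levels are given here as CPM scaled by TMM within a tissue, and differences as log2 fold changes of KI over WT from edgeR, fitted with L number and sex. MI0000084 was higher in KI mice than in WT mice in the neo-intact striatum, by 0.27 log2 units (SE 0.07). No other comparison of either member by genotype passed this test. MI0000083, the more abundant member, differed by 0.08 log2 units or less in every tissue and line.

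In neo-deleted striatum MI0000084 had a higher mean in KI than in WT libraries under both L numbers, but the difference did not pass the test. KI libraries ran from 1846 through a median of 2493 to 2720.2 CPM, and WT libraries from 1609 through 2062 to 2618. Inside L7 the 3 KI libraries had 1846, 1963 and 2343 CPM, and the 4 WT libraries had 1609, 1627, 1850.3 and 1866. Inside L8 the 4 KI libraries had 2493, 2591, 2684 and 2720.2 CPM, and the 4 WT libraries had 2258, 2351, 2441 and 2618. KI and WT overlapped under both L numbers, and 2 of 3 KI libraries of L7 and 2 of 4 of L8 lay above every WT library beside them. The fitted difference was 0.17 log2 units (95% interval 0.03 to 0.30, edgeR adjusted p = 0.0876), where 15.4% of features passed. DESeq2 called it, at 0.20 log2 units with an adjusted p of 0.00605, and called 47 of the 188 features in this comparison, against 29 by edgeR.

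In neo-intact striatum, MI0000084 ran from 1913 through a median of 2631 to 2863 CPM in KI libraries, and from 1329.9 through a median of 1671 to 2535 in WT libraries. The highest WT value was the 1 WT library of L8, and the other 7 WT libraries lay below every KI library. Inside L7 the 3 KI libraries had 1913, 2019.8 and 2127 CPM, and the 7 WT libraries had 1329.9 to 1813 with a median of 1648. Inside L8 the 5 KI libraries had 2631, 2632, 2682, 2757 and 2863 CPM, and the single WT library had 2535. All 3 KI libraries of L7 and all 5 of L8 lay above every WT library of the same L number. The fitted difference was 0.27 log2 units (95% interval 0.13 to 0.41) and passed the edgeR quasi-likelihood test, with a Benjamini-Hochberg adjusted p of 0.00522 over 188 features. In that comparison 15.4% of features passed in either direction, and MI0000084 ranked 17 by p.
The call was lost inside single L numbers: the difference was 0.30 within L7 (edgeR adjusted p = 0.0991) and 0.12 within L8 (adjusted p = 0.734), where the one WT library was assumed to vary like the others. Without L number in the model the difference was 0.50.
The difference between the lines was tested directly. The KI effect on MI0000084 was 0.10 log2 units smaller in the neo-deleted than in the neo-intact line, a change of -0.10 with a 95% interval from -0.29 to 0.09 (edgeR adjusted p = 0.954), so no difference between lines was detected. Over all features 0.532% differed in KI effect between the lines in striatum.

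**Figure D2:**
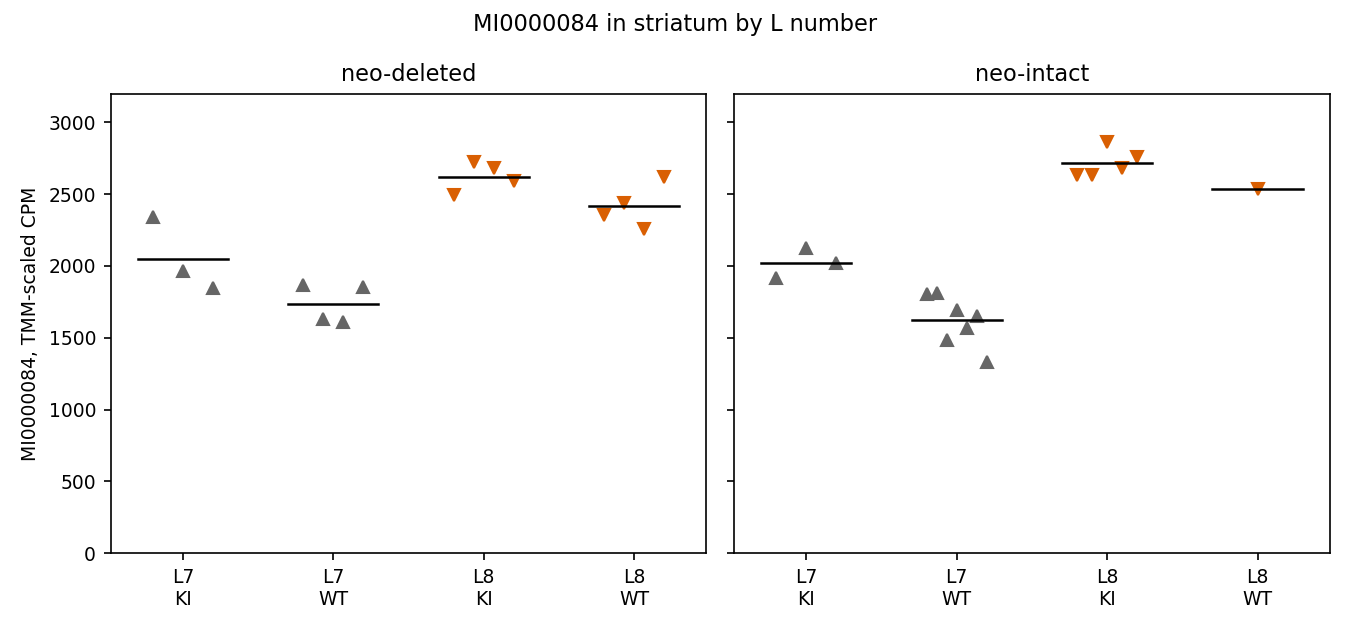
MI0000084 in striatum, in TMM-scaled CPM, for the neo-deleted (left) and neo-intact (right) lines, split by L number, with KI libraries left of WT libraries. Points are libraries and lines are means. Each KI mean lies above the WT mean of the same line and L number, with neo-intact L7 means of 2019.8 for KI and 1619.8 for WT, and L8 libraries lie above L7 libraries of the same genotype and line.

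MI0000083 in the same striatal libraries did not pass the test in either line. In neo-deleted striatum it ran from 65768 through 77309.5 to 86306 CPM in KI libraries and from 65423 through 71911 to 74822 in WT libraries. Inside L8 the 4 KI libraries, at 77309.5, 83264, 84027 and 86306 CPM, all lay above the 4 WT libraries, at 71268, 72554, 74426 and 74822. Inside L7 the 3 KI libraries averaged 67367 CPM and the 4 WT libraries 69416, and they overlapped. The fitted difference was 0.08 log2 units (95% interval -0.02 to 0.17, edgeR adjusted p = 0.265). In neo-intact striatum it ran from 67227 through 77234 to 81958 CPM in KI libraries and from 64389 through 70012 to 81069 in WT libraries, and the groups overlapped. The fitted difference was 0.03 log2 units (95% interval -0.07 to 0.13, edgeR adjusted p = 0.800).

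Cortex and liver showed no called genotype difference for either member. In cortex, MI0000084 averaged 1709.97 ± 337 CPM in neo-deleted KI mice and 1519 ± 308 in WT mice (SD, n = 8 each), and 1337 ± 179.9 in neo-intact KI mice and 1576 ± 254 in WT mice. The neo-intact KI libraries of cortex were all L1, as against 3 WT libraries. Inside L1 the neo-intact means were 1337 CPM in KI mice and 1326 in WT mice, and the fitted difference was 0.04 log2 units (95% interval -0.14 to 0.23, edgeR adjusted p = 0.809). The neo-deleted difference was 0.05 (-0.11 to 0.21, edgeR adjusted p = 0.859). MI0000083 in cortex averaged 67205 ± 6786 CPM in neo-deleted KI mice and 64612 ± 2632 in WT mice, and 59322 ± 2875 in neo-intact KI mice and 62693 ± 8499.7 in WT mice. Its fitted differences were 0.01 in the neo-deleted line (-0.11 to 0.12) and 0.02 in the neo-intact line (-0.11 to 0.15), with edgeR adjusted p of 0.955 and 0.932.

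In liver, MI0000084 averaged 4333 ± 316 CPM in neo-deleted KI mice and 4321 ± 494 in WT mice, and 4721 ± 487 in neo-intact KI mice and 4521 ± 413 in WT mice (SD, n = 8 each). MI0000083 averaged 30260.5 ± 1957 CPM in neo-deleted KI mice and 31646 ± 2219 in WT mice, and 31139 ± 3153 in neo-intact KI mice and 29930.4 ± 2446 in WT mice. The groups overlapped in each case. The largest fitted difference in liver was 0.06 log2 units, for MI0000084 in the neo-intact line (95% interval -0.08 to 0.21, edgeR adjusted p = 0.788). Over both members and lines the 95% intervals reached down to -0.14 and up to 0.23 log2 units in cortex. In liver they reached down to -0.17 and up to 0.21.

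These differences stand against a background of few changes. In cortex edgeR called 0% of 186 features by genotype in either line, with 9 at an unadjusted p under 0.05 in the neo-deleted and 15 in the neo-intact line, and DESeq2 called 0 in both. In liver edgeR called 0% of 131 features, with 4 and 13 at an unadjusted p under 0.05 in the neo-deleted and neo-intact lines, and DESeq2 called 0 in both. The KI effect differed between lines for 0% of features in cortex and in liver (13 and 10 at an unadjusted p under 0.05, and 0 by DESeq2 in each). For the members that line difference was between -0.11 and 0.01 log2 units, with edgeR adjusted p of 0.910 or more in these tissues.

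**Figure D3:**
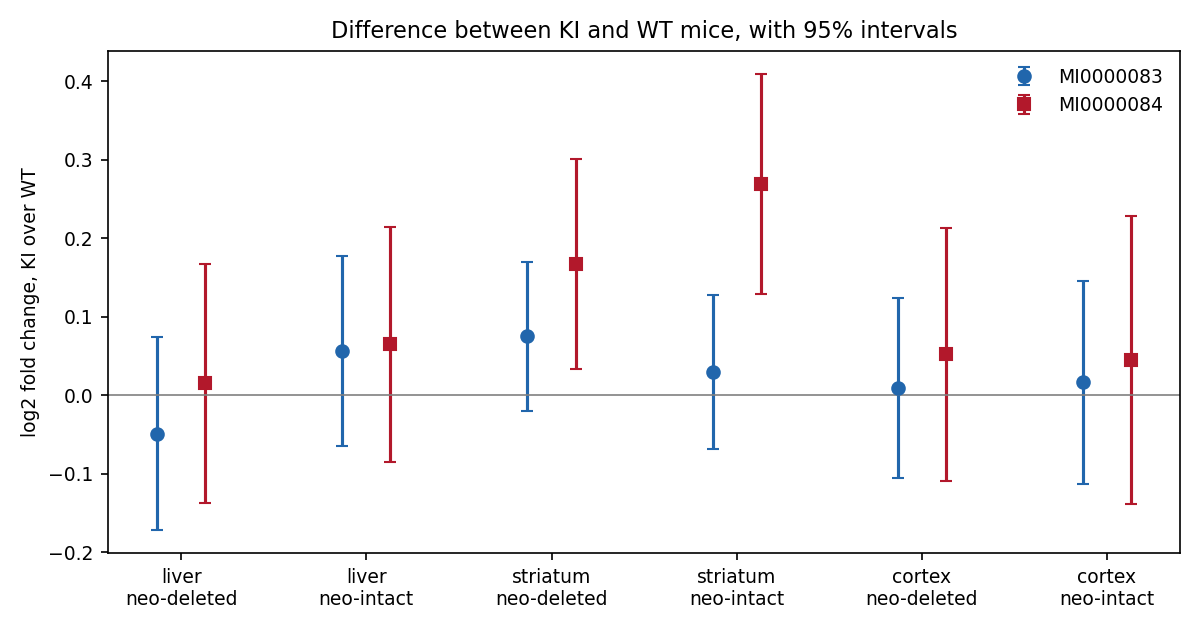
Log2 fold change of KI over WT mice for MI0000083 (circles) and MI0000084 (squares) in each tissue and line, from edgeR with L number and sex in the model. Bars are 95% intervals. The interval of MI0000084 lies above 0 in striatum of both lines, at 0.17 in the neo-deleted and 0.27 in the neo-intact line, and the adjusted p was under the threshold in the neo-intact line.

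The line and the sex of the mice were also compared. Between WT mice, the neo-deleted minus neo-intact difference was 0.08 log2 units for MI0000084 and -0.05 for MI0000083 in striatum, 0.02 and 0.08 in cortex, and -0.02 and 0.10 in liver. By edgeR 0% of features passed in any tissue (8, 14 and 9 at an unadjusted p under 0.05 in striatum, cortex and liver), and DESeq2 called 0, 0 and 1. Females minus males gave 0.01 for MI0000084 and 0.02 for MI0000083 in striatum, and -0.02 and 0.04 in cortex, where edgeR called 0% of features in both tissues (19 and 10 at an unadjusted p under 0.05, and 0 by DESeq2 in each). In liver edgeR called 15.3% of features between the sexes, but MI0000084 (-0.0038) and MI0000083 (0.03) were not among them, with adjusted p of 0.981 and 0.700.

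Between tissues of WT mice the comparisons were held inside an L number where tissues shared one. These fits had line and sex as terms. Values in this and the next paragraphs are CPM scaled by TMM within the libraries compared. In striatum of L8, MI0000084 had 2542, 2633, 2637, 2677 and 2795 CPM in the 5 libraries, against 1982 to 2299 with a median of 2174 in the 7 cortex libraries. Every striatum library was above every cortex library. The difference was 0.26 log2 units (SE 0.09, 95% interval 0.04 to 0.47, edgeR adjusted p = 0.0437), where 41.3% of features passed. With 1 library left out in turn, 11 of 12 fits missed the threshold, all but the one without neo-intact WT cortex F1, and the differences lay at 0.23 to 0.29. In KI mice of L8 it was 0.30 (edgeR adjusted p = 0.00402), in a fit that called 107 features, against 90 in WT mice.
MI0000083 had 79556, 79892, 80240.2, 83350.3 and 84311 CPM in striatum, against 68635 to 95412 with a median of 78351 in cortex. The groups overlapped, and the difference of 0.11 log2 units (95% interval -0.12 to 0.33, edgeR adjusted p = 0.428) did not pass.

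Liver and cortex shared L1, with 4 WT liver and 8 WT cortex libraries. The neo-deleted WT mice F2 and M4 gave a library of both tissues there, and the fit did not pair them. MI0000084 had 4645, 4897, 4969.97 and 5193 CPM in liver, against 1079 to 1309.8 with a median of 1168 in cortex. No liver library came near the cortex range, and the difference was 2.08 log2 units (SE 0.08, edgeR adjusted p = 1.31e-10). MI0000083 had 32249, 32449, 40184 and 41177 CPM in liver, against 45884 to 58915 with a median of 55523 in cortex. The groups again did not overlap, and the difference was -0.59 log2 units (SE 0.09, edgeR adjusted p = 7.15e-05). In this comparison 92.6% of features passed, so passing sets neither member apart.
The direction for MI0000083 depends on the point of comparison. The median of all features was itself -1.25 log2 units under TMM, -0.90 under DESeq2's size factors and -1.51 under total counts. Relative to that median MI0000083 was 0.66 higher in liver under each of these scalings, and MI0000084 was 3.33 higher. Summed with MI0000750, MI0000083 differed by -0.17 log2 units between liver and cortex, and the sum did not pass the test (edgeR adjusted p = 0.0782).

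**Figure D4:**
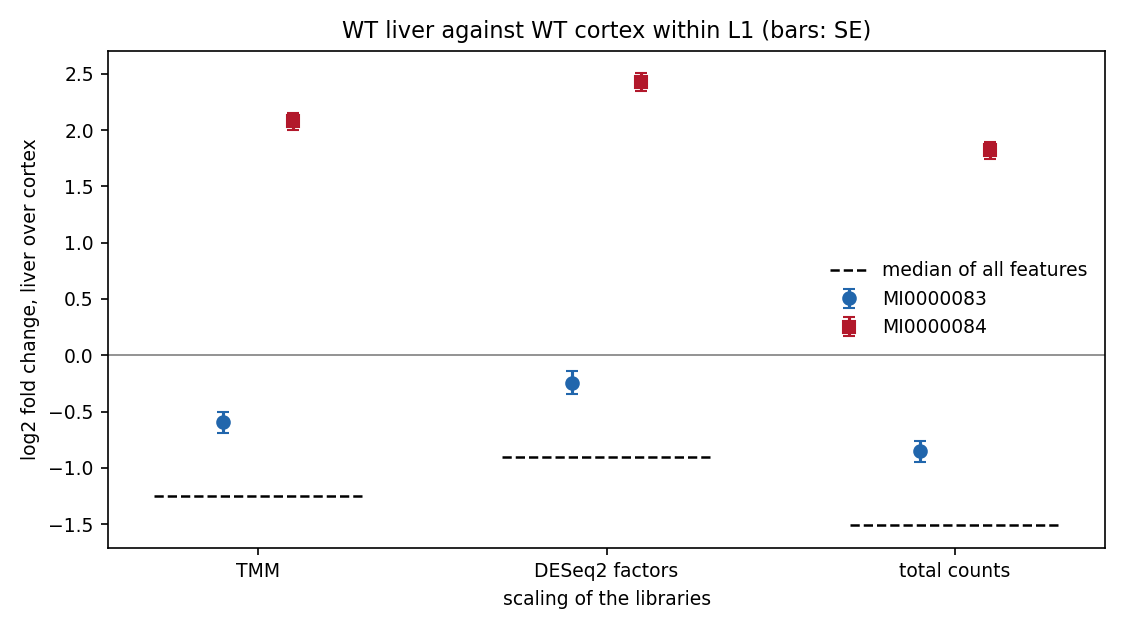
Log2 fold change of WT liver over WT cortex inside L1 for MI0000083 (circles) and MI0000084 (squares) under 3 scalings of the libraries, with bars for the standard error and dashed lines for the median of all features tested. MI0000084 lies between 1.82 and 2.43, and MI0000083 below 0 but above the dashed line in each case, 0.66 log2 units above it under TMM.

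Liver and striatum shared no L number, so tissue and L number cannot be told apart in this comparison. Each of the 16 WT mice gave a library of both tissues, and the fit, with line and sex as terms, did not pair them. MI0000084 ran from 3835 through 5138 to 6158 CPM in 16 WT liver libraries and from 1129 through 1582 to 2464 in 16 WT striatum libraries, without overlap. MI0000083 ran from 30092 through 33370.3 to 47031 CPM in liver and from 54671 through 63057 to 73965 in striatum, also without overlap. The differences were 1.58 log2 units for MI0000084 and -0.84 for MI0000083 (SE 0.10 and 0.07, edgeR adjusted p of 6.09e-16 and 1.68e-13), where 92.1% of features passed and the median was -1.17. Relative to that median they were 2.74 and 0.32. Summed with MI0000750, MI0000083 differed by -0.40 log2 units between liver and striatum (edgeR adjusted p = 1.04e-06).

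The ratio of the members within a library needs no scaling between libraries. MI0000083 exceeded MI0000084 by 6.93 ± 0.870 times in liver (SD, n = 32), by 35.3 ± 6.18 times in striatum (n = 31) and by 42.3 ± 6.12 times in cortex (n = 32). These means pool L numbers, and in both brain regions the mean ratio was lower in L8. In striatum it was 39.5 ± 5.20 in L7 (n = 17) and 30.2 ± 1.90 in L8 (n = 14). In cortex it was 45.5 ± 4.41 in L1 (n = 19) and 37.3 ± 5.34 in L8 (n = 12). In WT mice of L1 the log2 ratio averaged 2.88 ± 0.25 in 4 liver libraries and 5.53 ± 0.11 in 8 cortex libraries, a difference of -2.65. The two-sided exact permutation test gave p = 0.00202, the smallest p this design allows, and 0.00404 after Benjamini-Hochberg adjustment over the 2 tissue pairs. In WT mice of L8 it averaged 4.94 ± 0.07 in 5 striatum libraries and 5.20 ± 0.23 in 7 cortex libraries, a difference of -0.26 (exact permutation p = 0.0328, adjusted 0.0328). The call was lost in 3 of 12 fits with 1 library left out, those without neo-deleted WT striatum M1, M2 or M4 (differences of -0.25, -0.27 and -0.24), and over all WT libraries, where the difference was -0.13 (permutation, adjusted p = 0.141). With MI0000750 added to MI0000083 the liver minus cortex difference was -2.23 (exact permutation, adjusted p = 0.00404). The permutation tests between tissues took no account of sex, line or animal. In L8 most WT striatum libraries were male and neo-deleted, and most WT cortex libraries were female and neo-intact. The neo-deleted WT mouse F3 gave a library of both tissues there. In L1 the neo-deleted WT mice F2 and M4 each gave a liver and a cortex library.

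Between genotypes the ratio was compared with labels permuted inside each L number, over 6 comparisons. In neo-intact striatum the log2 ratio ran from 4.75 through 4.93 to 5.34 in KI libraries and from 4.999 through 5.40 to 5.60 in WT libraries. The L number means differed too, and inside L7 the ratio averaged 5.19 in KI libraries and 5.43 in WT libraries. With L number in the fit the difference was -0.21, with a two-sided exact permutation p of 0.00833 and a Benjamini-Hochberg value of 0.05, which is not under the threshold. With 1 library left out it passed in 5 of 16 fits, those without KI M1, M3 or F4 or WT F2 or M2, and the adjusted exact permutation p ran from 0.0238 to 0.25. In neo-deleted striatum it was -0.10 (exact permutation p = 0.238, adjusted 0.714). In cortex it was -0.03 in the neo-deleted and 0.05 in the neo-intact line, and in liver -0.07 and -0.01, with adjusted exact permutation p of 0.807 to 0.939.

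**Figure D5:**
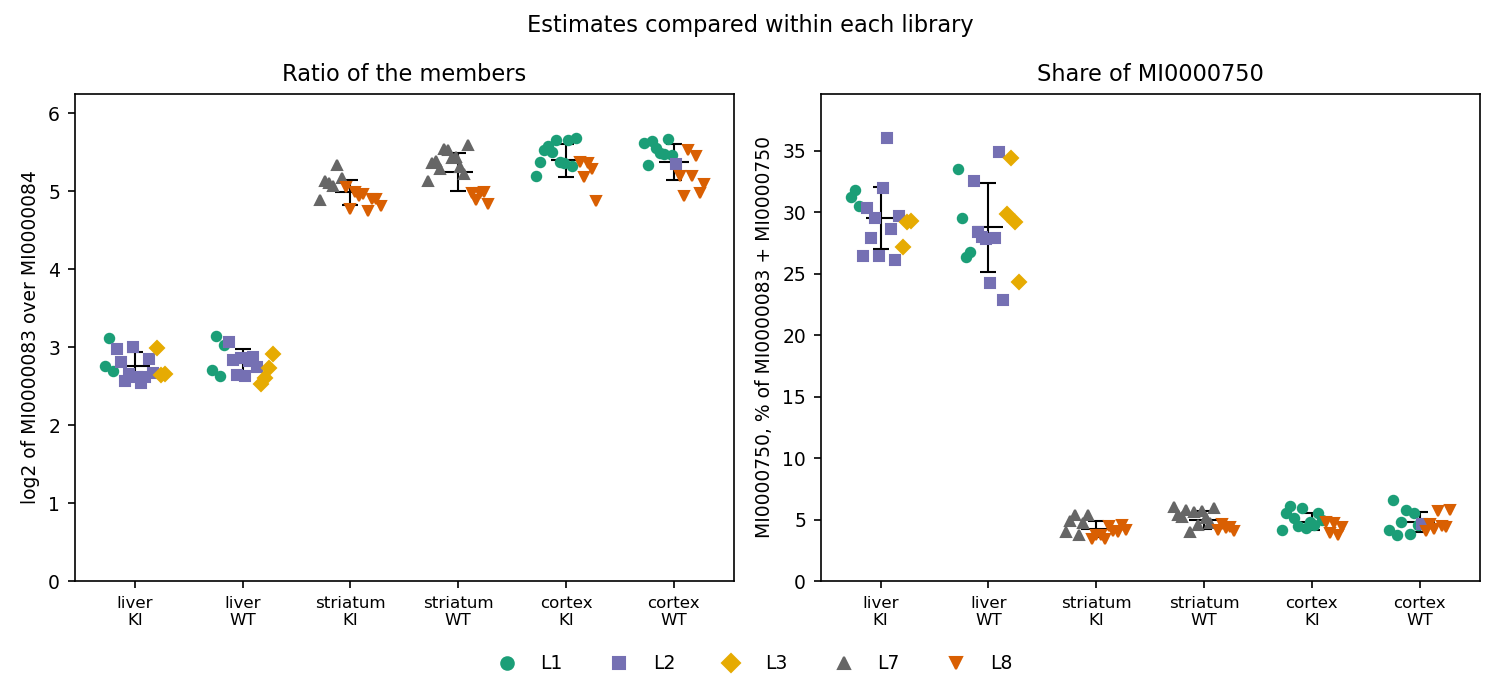
Left, log2 of MI0000083 over MI0000084 in each library. Right, MI0000750 as a percent of MI0000083 plus MI0000750. Libraries are grouped by tissue (liver, striatum, cortex) and genotype (KI left of WT), shaped and coloured by L number, with bars for mean ± SD. Liver libraries lie apart from both brain regions in each panel, with a mean share of 29.1% in liver, 4.64% in striatum and 4.84% in cortex.

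The split of reads between MI0000083 and MI0000750 also differed by tissue. MI0000750 made up 29.1 ± 3.09% of their sum in liver (SD, n = 32), 4.64 ± 0.757% in striatum (n = 31) and 4.84 ± 0.745% in cortex (n = 32). The lowest liver library, at 22.9%, lay far above the highest brain library, at 6.59%. In WT mice of L1 the shares were 29.04 ± 3.31% in liver and 4.91 ± 0.998% in cortex (n = 4 and 8), and the two-sided exact permutation p was 0.00202, adjusted 0.00404 over 2 pairs. In WT mice of L8 the shares were 4.33 ± 0.231% in striatum and 4.78 ± 0.700% in cortex (n = 5 and 7, exact permutation p = 0.236). This comparison was added after the values were seen, and it describes how the deposited estimates divide the sum between the 2 features.

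Across the 95 libraries, after the mean of each tissue and L number was removed, the members' levels had a Pearson correlation of 0.09. Taken by tissue, the correlation was 0.33 over the 31 striatal libraries, 0.0021 over the 32 cortical ones and -0.07 over the 32 from liver. The features most like MI0000083 on this measure were MI0000465 (r = 0.42) and MI0000477 (r = 0.39), among 105 compared. Those most like MI0000084 were MI0000115 (r = 0.44) and MI0000471 (r = 0.43). These libraries share their preparation and scaling, and 3 tissues of one mouse are not independent.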

How the data were processed

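Small RNA libraries from 95 tissue samples were compared. The authors' deposited tables give estimated counts and FPKM per hairpin. The submitters' processing notes list mm10 as the build and CASAVA 1.8.2 as a tool; the counting tool and hairpin annotation are not given in the sources used here. FPKM was deposited by the authors and used only for levels per length and implied lengths. Each sample column was matched to a labelled sample.

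Estimated counts were rounded and tested with edgeR 4.0.16 (quasi-likelihood, TMM, filterByExpr with a minimum count of 10 and a total of 15) in R 4.3.3. Genotype, line and sex were compared on all libraries of a tissue, with L number and sex as terms. Tissues were compared in separate fits on the WT libraries compared, with line and sex as terms and their own filter and TMM scaling. P-values were adjusted by Benjamini-Hochberg over all features of a fit, with 0.05 as the threshold. TMM-scaled values come from these fits. Ratios were tested by exact permutation. The fits of KI against WT mice were tested on simulated counts, with 10 features altered at each fold size. At 1.2-fold the neo-intact and neo-deleted fits recovered 5 and 2 in striatum, 0 and 2 in cortex, and 2 and 1 in liver. At 2-fold they recovered 7 and 10 in striatum, 9 and 9 in cortex, and 7 and 7 in liver. False calls, with neo-intact first, were 2 of 21 and 2 of 22 in striatum. They were 1 of 15 and 0 of 19 in cortex, and 2 of 17 and 3 of 16 in liver. Totals were 74540 to 496035 counts per library; PCR copies are not independent molecules, so counting error alone understates the spread. Of 161 library pairs within groups, 0 were identical. The members and lists were chosen with earlier results of these data known. The named features were both members and, for each, the 2 most correlated features; MI0000750 falls outside that rule and was singled out after its values were seen. DESeq2 1.42.0 and limma 3.58.1 gave alternatives, as did other scalings, filters, model terms and left-out libraries. Mice are the replicates, and same-numbered KI and WT mice are different animals.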

Additional observations from a re-analysis of the deposited data

Results flagged for a closer look

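In 48 sets of 7 or 8 libraries of one group (both members' levels, their ratio and the share of MI0000750), 4 held a library far from the rest, and about 5% of sets would do so by chance. MI0000084 in the neo-intact WT striatum stood at 2535 CPM in male replicate M3, the only L8 library of that group, with the other 7 at 1329.9 to 1813. MI0000083 in the neo-intact WT liver stood at 35749 CPM in male replicate M1, with the others at 28114 to 30003. The share of MI0000750 in its sum with MI0000083 was 36.03% in neo-intact KI liver M2, with the others at 26.4 to 30.5%. It was 6.59% in neo-intact WT cortex F3, with the others at 3.88 to 4.67%.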

How the results depend on the processing

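For MI0000084 in neo-intact striatum the direction was the same under all alternatives, from 0.12 to 0.50 log2 units, and with any 1 library left out the edgeR adjusted p stayed at 0.0107 or less. The call was lost at 0.30 without L8 libraries and within L7, at 0.12 within L8 and at 0.24 with only the 2 groups fitted. In neo-deleted striatum MI0000084 passed at 0.21 with DESeq2's size factors, at 0.22 with a filter of 10 CPM in 7 libraries and at 0.20 with DESeq2, and with 1 library left out it lay at 0.15 to 0.23 and passed in 13 of 31 fits. MI0000083 there passed at 0.11 with only the 2 groups fitted, and in 3 of 31 fits with 1 library left out (0.065 to 0.13). The striatum ratio in the neo-intact line passed at -0.40 without L number and at -0.22 with MI0000750 summed in, and with 1 library left out it lay at -0.26 to -0.18, passing in 5 of 16 fits. Between striatum and cortex, MI0000083 passed at 0.22 under total counts, MI0000084 was lost at 0.25 without a filter and at 0.19 over all WT libraries, and the ratio was lost at -0.13 over all WT libraries; with 1 library left out MI0000084 lay at 0.23 to 0.29 (lost in 11 of 12 fits) and the ratio at -0.30 to -0.21 (lost in 3 of 12). MI0000083 between liver and cortex was lost at -0.17 with MI0000750 summed in. Deviations of same-numbered KI and WT libraries had median correlations of -0.12 to 0.09 over tissues and lines. In neo-deleted liver 4 of 8 pairs exceeded 0.1, with a highest value of 0.54. With the number as a replicate block MI0000084 was 0.16 in neo-deleted and 0.25 in neo-intact striatum. With the animal as a replicate block, MI0000084 differed by 0.43 for striatum over cortex and by 2.21 for liver over cortex. Those fits held all WT libraries of the tissues, with L number in the model, and not the L8 or L1 libraries alone. None of 30 blocked tests changed its call. Counts of called features in neo-deleted striatum were 47 by DESeq2, 10 without L number and 8 without L8, against 29, and in neo-intact striatum 13 without L8 and 3 within L8, against 29. Without L number, 18 features passed in neo-intact cortex, against 0. Without a filter 5 and 6 passed by genotype in neo-deleted and neo-intact liver, against 0 each, and 260 between liver and striatum, against 164. The causes were not tested.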
